A study of Mus musculus with 12 samples.

Results

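The E2 ubiquitin-conjugating enzymes were examined as the genes whose symbol begins with Ube2 followed by a lower-case letter, leaving out symbols marked as pseudogenes. This rule found 34 of the 17505 genes listed in the deposited tables. All 34 were listed in the comparison of muscle stem cells (MuSCs) with myoblasts, and 33 were listed in the comparison of genotypes, which did not list Ube2ql1. A further member, Ube2cbp, carries the name but is an E3 ligase, annotated as Ube3d in the current mouse annotation. It is counted below because the rule takes it in.

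RNA was sequenced with SMART-Seq, a method that amplifies full-length cDNA, from 1000 cells per library. In the first comparison, MuSCs freshly sorted from 3 WT mice (replicates 04, 05 and 06) were set against myoblasts of the same 3 mice after 3 days of culture in growth medium containing serum and bFGF. The age of these 3 mice is not given in the sources used here. In the genotype comparison, freshly sorted MuSCs came from 3 Nedd4L-WT mice and from 3 Nedd4L-cKO mice, all male, on a C57BL/6 background and 5 to 6 weeks old. Nedd4L-cKO mice are Nedd4L fl/fl Pax7 cre/+, so that Cre is made from the Pax7 locus and exon 15 of Nedd4L is removed in MuSCs and in every cell that descends from them, myofibers included. Which alleles the Nedd4L-WT mice carried, floxed Nedd4L or Cre, is not given in the sources used here. The gate for all MuSCs was ITGA7+, Hoechst+ and negative for CD31, CD45, CD11b and SCA1. It is meant to select muscle stem cells and to exclude endothelial, blood and fibro-adipogenic cells.

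Ubiquitin is passed along a cascade of 3 enzyme classes. An E1 activates it, an E2 carries it on a catalytic cysteine, and an E3 brings the loaded E2 to the substrate. With RING ligases the E2 hands ubiquitin directly to the substrate and largely sets the kind of chain that is built, whereas HECT ligases such as Nedd4L first take ubiquitin onto a cysteine of their own. A few enzymes of the E2 fold carry other modifiers, among them Nedd8 and the interferon-induced Isg15.

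The sorted and cultured cells carried the marker genes of their labels, and markers of other cell types were also present. Levels are given in RPM (normalized counts divided by the mean library total of their table, in parts per 1000000). Summed over the 9 MuSC markers, they were 5554 to 7827 RPM in the 3 MuSC libraries and 786 to 859 RPM in the 3 myoblast libraries. The 5 markers of myoblasts and muscle commitment summed to 1262 to 1540 RPM in MuSCs and 6629 to 8800 RPM in myoblasts. Of these 5, 1 had a negative log2 fold change. The 7 fibro-adipogenic markers summed to 459 to 623 RPM in MuSCs and to 4.36 to 6.84 RPM in myoblasts, and the 7 myofiber markers to 122 to 350 RPM in MuSCs and 8629 to 19726 RPM in myoblasts. In the genotype comparison, MuSC markers overlapped between WT and Nedd4L-cKO libraries, while myofiber markers were 164 to 350 RPM in WT and 407 to 510 RPM in Nedd4L-cKO libraries. Fibro-adipogenic markers were present in both genotypes and overlapped, at 720 to 2011 RPM in WT and 700 to 2636 RPM in Nedd4L-cKO libraries. Mural markers, those of pericytes and smooth muscle, ranged from 328 to 1201 RPM in WT and from 497 to 2205 RPM in Nedd4L-cKO libraries. All 5 had a positive difference, beside 7669 of all 15304 genes tested. Between genotypes the myofiber sums did not overlap but the mural sums did, and none of the markers in either list were called with limma. Between MuSCs and myoblasts the fibro-adipogenic and myofiber sums did not overlap. The part of other cell types in the E2 results was not tested. In RNA from bulk samples, fewer cells of a type and less RNA per cell cannot be told apart.

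Promoter sequences are shown for the 3 members whose pattern is described most closely below. Among tested members, Ube2l6 had the largest log2 fold change between MuSCs and myoblasts, Ube2c was the member called higher in Nedd4L-cKO MuSCs, and Ube2t is a further proliferation-linked member, shown because it held motif matches. The sequences are from RefSeq on GRCm38.p6, plus strand, and end at the base before the annotated start site. Capitals mark CCAAT boxes (CCAAT or, on the other strand, ATTGG) and the cell cycle homology region, or CHR (TTTGAA or, on the other strand, TTCAAA), elements known from promoters of mitotic genes.
Ube2c, chr2:164769679-164769928: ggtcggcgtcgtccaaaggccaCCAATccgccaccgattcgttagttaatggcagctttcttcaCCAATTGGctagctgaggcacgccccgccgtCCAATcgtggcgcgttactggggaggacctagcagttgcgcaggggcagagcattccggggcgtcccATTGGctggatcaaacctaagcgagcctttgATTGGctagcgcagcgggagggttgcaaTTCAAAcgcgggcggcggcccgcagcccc
Ube2t, chr1:134962415-134962564: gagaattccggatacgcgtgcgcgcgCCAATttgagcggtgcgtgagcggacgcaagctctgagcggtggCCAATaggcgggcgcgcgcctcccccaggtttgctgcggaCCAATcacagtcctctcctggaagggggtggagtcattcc
Ube2l6, chr2:84798678-84798827: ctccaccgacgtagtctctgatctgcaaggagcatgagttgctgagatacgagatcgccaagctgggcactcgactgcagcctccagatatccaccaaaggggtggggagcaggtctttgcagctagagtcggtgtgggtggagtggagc

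In the window from 250 bases before to 50 bases after the start site, Ube2c held 6 CCAAT matches, 2 of which overlap as CCAATTGG, and 1 CHR match that begins 29 bases before the start site. Ube2t held 3 CCAAT matches, at 124, 80 and 40 bases before its start site, and no CHR match. Ube2s, also linked to proliferation, held neither in its window. The Ube2l6 window held neither, nor a match to the interferon-stimulated response element, which allows no statement about interferon factors. Such matches are frequent: over all 32851 mouse promoters of the same length, 37.4% held CCAAT, 17.9% held the CHR letters and 3.44% the interferon element, each searched on both strands. A promoter was found for 27 of the 34 members. Of these, 7 held a CCAAT match (25.9%, against 41.1% of all genes), 4 held a CHR match (14.8% against 20.2%) and none held the interferon element (against 3.99%). The CHR matches were in Ube2c, Ube2d2b, Ube2f and Ube2z, of which only Ube2z held no CCAAT match. Ube2f, an E2 for Nedd8, held 3 CCAAT matches, as many as Ube2t, so the elements were not particular to proliferation-linked members. The muscle E-box CAGCTG was present in 6 members, or 22.2%, against 18.3% of all genes. The match is a description of letters and not of factor binding.

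Levels differed widely among the members. Compared per kilobase of the canonical transcript, Ube2v1 and Ube2d3 led the MuSC libraries at 272 ± 37.1 and 246 ± 16.2 RPM per kb (SD, n = 3), a difference within their spread. Ube2s followed at 115 ± 13.5 RPM per kb and Ube2n at 95.5 ± 1.86 RPM per kb. The 5 highest members made up 47.6% of the summed level per kb in MuSCs and 50.5% in myoblasts. In myoblasts the order again began with Ube2v1, Ube2d3 and Ube2s, and Ube2c ranked 4 at 101 ± 22.3 RPM per kb. Ube2l6, the eighth member in MuSCs at 70.0 ± 10.4 RPM per kb, ranked 28 of 34 in myoblasts at 6.40 ± 0.690 RPM per kb. In WT MuSCs of the genotype comparison, Ube2d3 stood first at 306 ± 45.5 RPM per kb and Ube2v1 followed at 139 ± 24.5 RPM per kb. At the low end, Ube2d2b and Ube2ql1 had mean levels under 1 RPM wherever they were listed.

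**Figure D1:**
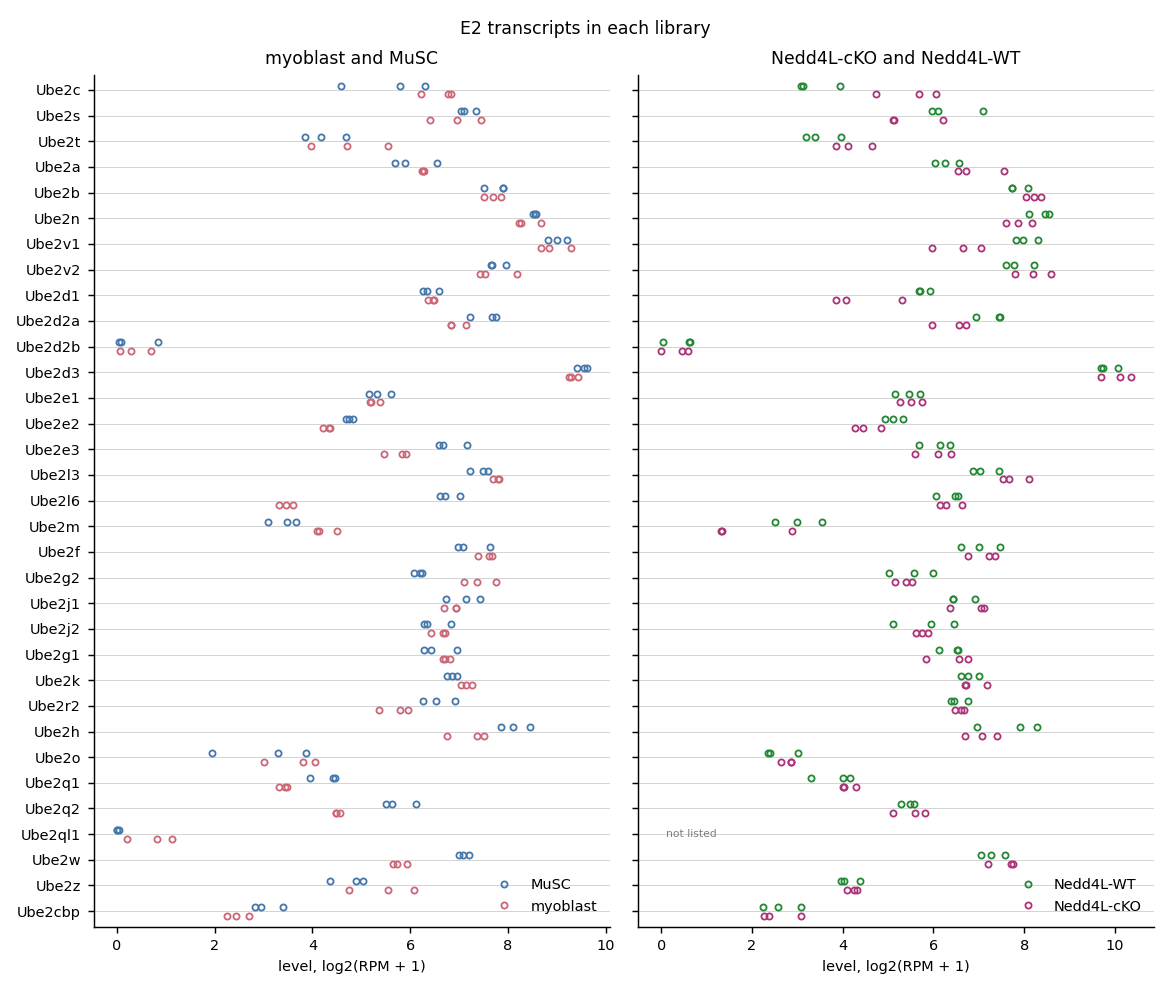
Level of the E2 members in each library on a log2(RPM + 1) axis, with MuSC and myoblast libraries on the left and Nedd4L-WT and Nedd4L-cKO libraries on the right, 3 open circles per group and members ordered by role. Ube2l6 shows the widest gap between MuSCs and myoblasts, and Ube2c and Ube2v1 show gaps of opposite direction between the genotypes.

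The first comparison asked how E2 transcripts differ between freshly sorted stem cells and their cultured progeny. Ube2l6, the E2 for Isg15, was lower in myoblasts by 10.9-fold, and 7 further members were lower, among them Ube2w, Ube2q2, Ube2e3 and Ube2h. Ube2g2, an E2 of endoplasmic reticulum-associated degradation (ERAD), and Ube2m, an E2 for Nedd8, were higher. Of 32 members tested, 10 were called with limma at an adjusted p of at most 0.05 (2 higher and 8 lower), or 31.25%, beside 42.8% of all 15345 genes tested. Of all genes, 22.2% were called higher and 20.6% lower. With each library scaled to its own total, 3 members were called higher and 6 lower. The median log2 fold change was -0.09 over the members and 0.04 over all genes. Groups did not overlap for 15 members, against 55.2% of all genes. At an unadjusted p under 0.05 there were 12 members (51.5% of all genes), of which 11 also did not overlap (48.5% of all genes). Ube2ql1 and Ube2d2b were listed but did not reach 10 normalized counts in at least 3 libraries. Summed over all 34 members, the level was 4688 to 5130 RPM in MuSC libraries and 4079 to 4637 RPM in myoblast libraries, without overlap.

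Ube2l6 loads Isg15, a ubiquitin-like modifier that interferon induces, and it can also carry ubiquitin. Its level was 128, 96.8 and 104 RPM in MuSC replicates 04, 05 and 06 and 8.97, 10.01 and 11.1 RPM in the myoblasts of the same mice. Every MuSC library stood far above every myoblast library. On the log2 scale Ube2l6 changed by -3.32 ± 0.23 (SE; adjusted p = 1.28e-05 by limma), and it kept its call under all 13 alternatives. Other genes of the Isg15 pathway were counted from a list of 10. None were higher and 6 were lower, or 60.0% beside 20.6% of all genes called lower, with a median log2 fold change of -2.19. The log2 fold change was -3.59 for the Isg15 protease Usp18 and -2.38 for the Isg15 ligase Herc6. Usp18 was 5.65, 21.1 and 27.0 RPM in MuSCs and 0.145, 0.173 and 0.759 RPM in myoblasts. The myoblast values are near the floor, so the size of the Usp18 change depends on the pseudocount. Isg15 itself was near the floor in both groups, at 1.28 to 5.14 RPM in MuSCs and 0.488 to 2.97 RPM in myoblasts, and its E1, Uba7, did not exceed 2.62 RPM in any library of this comparison. The summed list was 107, 289 and 279 RPM in the MuSC replicates, lowest in replicate 04, where Ube2l6 was highest. The Isg15 pathway and Ube2l6 were therefore not ordered alike within the MuSC libraries. Ube2l3, which shares its family with Ube2l6 and serves HECT and RBR ligases, was 149, 192 and 178 RPM in MuSCs and 223, 221 and 206 RPM in myoblasts (log2 difference not called, adjusted p = 0.158). Per kb, Ube2l6 made up 45.6% to 58.9% of the level of the 2 genes in MuSCs and 6.27% to 8.24% in myoblasts.

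Ube2w attaches ubiquitin to the amino terminus of substrates. Its level was 134, 147 and 127 RPM in MuSCs and 49.2, 52.3 and 60.2 RPM in myoblasts, with no overlap. The log2 fold change was -1.32 ± 0.19 (adjusted p = 5.99e-04). Ube2q2, of the divergent Ube2q family, was 68.8, 48.6 and 44.2 RPM in MuSCs and 21.4, 22.6 and 21.4 RPM in myoblasts (log2 fold change -1.24 ± 0.24, adjusted p = 0.00346). The myoblast libraries lay close together, whereas MuSC replicate 04 stood above the others. Its relative Ube2q1 was 20.5, 21.1 and 14.5 RPM in MuSCs and 8.98, 9.87 and 10.1 RPM in myoblasts, also without overlap. For Ube2q1 the log2 fold change was -0.87 ± 0.28 with an adjusted p of 0.0340, which became 0.0661 with the mouse as a replicate block. The call was lost in 6 of 13 alternatives, also with each library scaled to its own total (0.0568) and without MuSC replicate 04 (0.0792), MuSC replicate 05 (0.110), myoblast replicate 05 (0.0917) or myoblast replicate 06 (0.0858).

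Among the Ube2e genes, whose products bear an amino-terminal extension ahead of the E2 core, Ube2e3 was 95.6, 101 and 142 RPM in MuSCs and 43.2, 59.5 and 56.3 RPM in myoblasts (log2 fold change -1.07 ± 0.23, adjusted p = 0.00576). The groups did not overlap, with the wider spread among the MuSCs. Ube2e2 was 27.6, 24.8 and 25.9 RPM in MuSCs and 19.2, 19.4 and 17.5 RPM in myoblasts, without overlap but not called (adjusted p = 0.140). Ube2e1 overlapped between the groups, at 34.6 to 47.7 RPM in MuSCs and 35.2 to 40.5 RPM in myoblasts. As a share of the Ube2e level per kb, Ube2e3 accounted for 51.4% to 58.8% in MuSCs and 35.0% to 44.6% in myoblasts.

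Ube2h, the E2 of the CTLH ligase complex, was 351, 275 and 232 RPM in MuSCs and 107, 163 and 180 RPM in myoblasts. The groups did not overlap, and myoblast replicate 04 was the lowest library. Its log2 fold change was -0.94 ± 0.25 (adjusted p = 0.0149, and 0.0510 without MuSC replicate 04). Ube2r2, which with Cdc34 extends chains on substrates of cullin ligases, was 91.6, 120 and 76.1 RPM in MuSCs and 39.8, 60.7 and 54.1 RPM in myoblasts (log2 fold change -0.88 ± 0.25, adjusted p = 0.0195, and 0.0814 without MuSC replicate 05). Cdc34, an E2 without a Ube2 symbol, moved the other way, from 23.8, 20.1 and 15.6 RPM in MuSCs to 46.0, 99.8 and 106 RPM in myoblasts (log2 fold change 1.95 ± 0.34, adjusted p = 0.00204). Of the 8 E2s without a Ube2 symbol, 1 was called higher and 3 lower, the latter including Aktip and the Ufm1 E2 Ufc1. This stands beside 42.8% of all genes called, 22.2% higher and 20.6% lower.

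Ube2g2, which works with membrane ligases of ERAD, was 66.4, 75.04 and 72.4 RPM in MuSCs and 136, 165 and 215 RPM in myoblasts. All myoblast libraries were above all MuSC libraries, with the wider spread among the myoblasts. Its log2 fold change was 1.23 ± 0.21 (adjusted p = 0.00184), and the call held under all 13 alternatives. The membrane-anchored ERAD enzymes overlapped and were not called: Ube2j1 was 170, 141 and 105 RPM in MuSCs and 122, 122 and 103 RPM in myoblasts, and Ube2j2 was 76.6, 80.7 and 113 RPM in MuSCs and 85.01, 103 and 101 RPM in myoblasts. Of 15 other ERAD genes, 4 were higher and 3 were lower, beside a background of 42.8%. The ligase Syvn1 was higher by 2.11 on the log2 scale and the Vcp cofactor Nploc4 by 1.62. The 4 include Derl3, which was at 0 RPM in all 3 MuSC libraries and 1.11 to 4.56 RPM in myoblasts, and so passed the filter on low values only through the myoblasts.

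For Nedd8, Ube2m serves most cullins and Ube2f serves Cul5. Ube2m was 10.1, 7.49 and 11.6 RPM in MuSCs and 21.7, 16.0 and 16.5 RPM in myoblasts, without overlap. Its log2 fold change was 0.84 ± 0.29 with an adjusted p of 0.0467, but 0.0732 with the replicate block, and the call was lost whenever any of the 6 libraries was left out (adjusted p = 0.0598 to 0.144). Ube2f was 198, 135 and 125 RPM in MuSCs and 202, 166 and 194 RPM in myoblasts, which overlapped. Of 10 Nedd8 conjugation genes, 3 were higher, among them the cullin exchange factor Cand1 at a log2 fold change of 1.35, and 1 was lower, so that 40.0% were called beside 42.8% of all genes. Among Sumo ligases and proteases, 2 of 12 were higher and 3 lower, led by the ligase Pias1 at a log2 fold change of -1.61, and the share called of 41.7% was near the 42.8% of all genes.

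The Ube2d enzymes work with a broad range of RING and HECT ligases, including those of the Nedd4 family. Ube2d2a was 216, 148 and 202 RPM in MuSCs and 140, 113 and 113 RPM in myoblasts, separated by a narrow margin. Its log2 fold change was -0.61 ± 0.21 (adjusted p = 0.0413), and the call was lost under 7 of 13 alternatives, with an adjusted p of up to 0.130. Ube2d3 was 782, 748 and 686 RPM in MuSCs and 687, 612 and 621 RPM in myoblasts, and Ube2d1 was 95.8, 80.7 and 75.6 RPM in MuSCs and 81.5, 87.8 and 89.1 RPM in myoblasts. Both overlapped between the groups. Ube2d3 supplied 64.3% to 69.8% of the Ube2d level per kb in MuSCs and 67.4% to 68.5% in myoblasts.

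The remaining groups of E2s overlapped between MuSCs and myoblasts or missed the threshold. The Rad6 homologs, which act with Rad18 in DNA damage tolerance, were 50.7, 58.5 and 93.2 RPM in MuSCs and 77.2, 75.4 and 74.7 RPM in myoblasts for Ube2a. Ube2b was 238, 180 and 236 RPM in MuSCs and 229, 182 and 207 RPM in myoblasts. The enzymes that build K63-linked chains, Ube2n with its catalytically inactive partners Ube2v1 and Ube2v2, overlapped as well. Ube2n was 373, 364 and 378 RPM in MuSCs and 409, 297 and 308 RPM in myoblasts. For Ube2v1 the levels were 590, 510 and 450 RPM in MuSCs and 624, 411 and 455 RPM in myoblasts, and for Ube2v2 204, 199 and 249 RPM and 292, 170 and 184 RPM. In each of these genes myoblast replicate 04 was the highest library. Ube2k was 107 to 124 RPM in MuSCs and 131 to 154 RPM in myoblasts, without overlap, at an adjusted p of 0.199. Ube2g1 (77.2 to 124 and 101 to 111 RPM), Ube2o (2.87 to 13.6 and 7.06 to 15.5 RPM) and Ube2z (19.5 to 31.9 and 25.9 to 66.1 RPM) overlapped. Ube2cbp was 6.07 to 9.52 RPM in MuSCs and 3.79 to 5.46 RPM in myoblasts and was not called (adjusted p = 0.163). Ube2ql1 was at or below 0.0324 RPM in the MuSC libraries and at 0.149, 0.755 and 1.19 RPM in myoblasts.

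Cell cycle E2s were not called in this comparison. Ube2c, which starts chains on substrates of the anaphase-promoting complex (APC/C), was 22.8, 54.6 and 77.4 RPM in MuSCs and 108, 112 and 73.1 RPM in myoblasts. The ranges overlapped, since MuSC replicate 06 exceeded myoblast replicate 06, and the log2 fold change of 1.05 ± 0.41 had an adjusted p of 0.0656 (0.0267 to 0.163 over 13 alternatives). Ube2s, which elongates those chains, was 161, 136 and 130 RPM in MuSCs and 83.3, 174 and 124 RPM in myoblasts. Ube2t, the E2 of the Fanconi anemia pathway of crosslink repair, was 13.4, 16.9 and 24.6 RPM in MuSCs and 45.9, 25.2 and 14.7 RPM in myoblasts, so that only myoblast replicates 04 and 05 were above all MuSCs. A list of 18 proliferation genes summed to 993, 2067 and 1918 RPM in MuSCs and 4402, 2864 and 1683 RPM in myoblasts. The list was lowest in MuSC replicate 04, where Ube2c and Ube2t were also lowest but Ube2s was highest. Among the myoblasts, the list and Ube2t were both highest in replicate 04 and lowest in replicate 06. Ube2s was instead lowest in myoblast replicate 04, and Ube2c was highest in replicate 05 and lowest in replicate 06. Of the 18 genes, 5 were higher, including Plk1 and Rrm2, and none were lower, or 27.8% called beside 42.8% of all genes. Of 19 APC/C genes, 7 were higher and 4 lower (57.9%), led by the activator Fzr1 at a log2 fold change of 1.78.

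Upstream of the E2s, modifier transcripts were mostly lower in myoblasts. Ubb, a polyubiquitin gene, was 13632, 10658 and 9706 RPM in MuSCs and 4038, 2912 and 3104 RPM in myoblasts (log2 fold change -1.76 ± 0.20, adjusted p = 1.77e-04). This difference far exceeded the spread between libraries. Over 13 modifier genes, 7 were lower and 1, Urm1, was higher. The share called was 61.5%, beside 42.8% of all genes, of which 20.6% were called lower. Of the 9 E1 genes, none were called higher and 1 was called lower (11.1% called), a call that was lost with the replicate block.

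**Figure D2:**
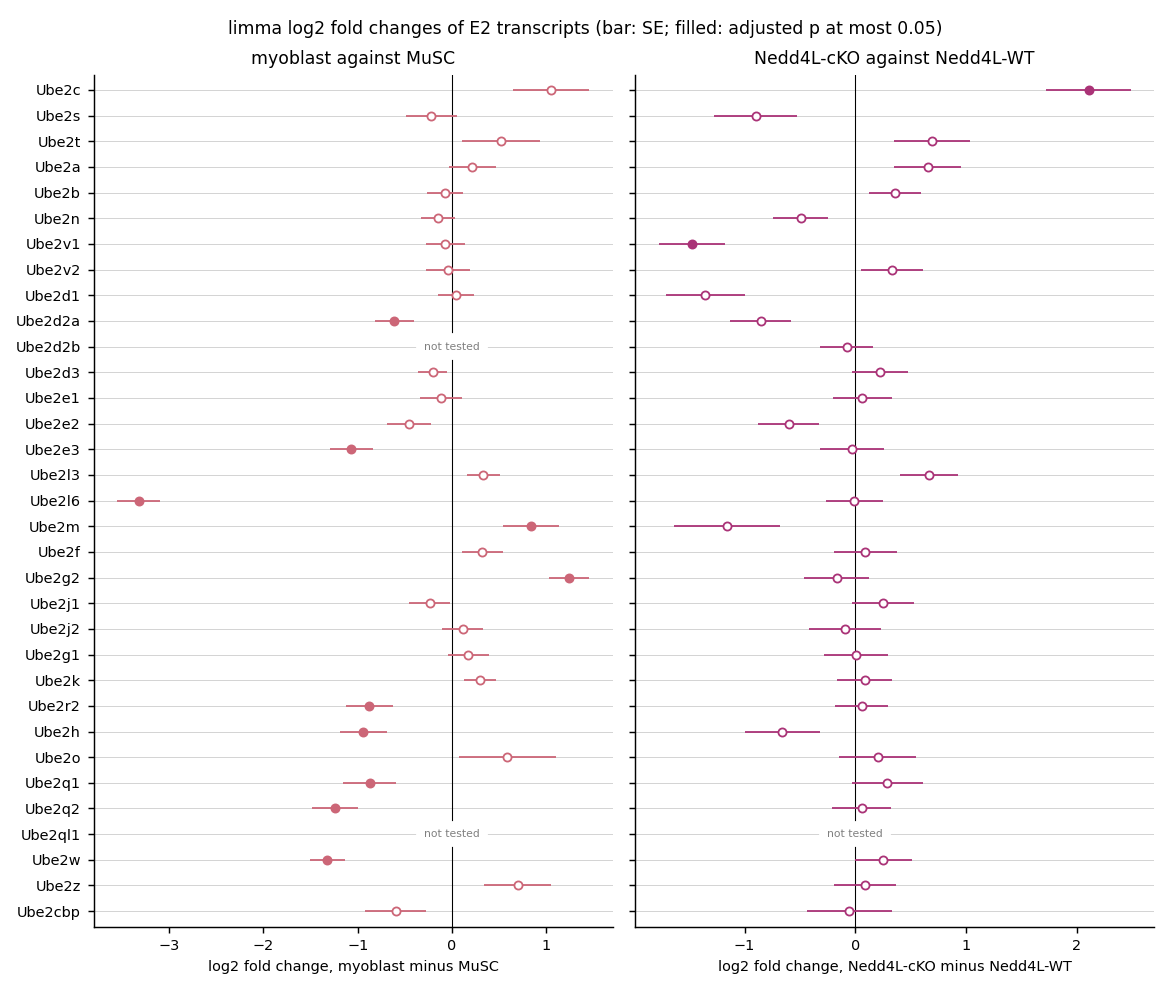
Log2 fold change of E2 members, myoblast minus MuSC on the left and Nedd4L-cKO minus Nedd4L-WT on the right (x axes, log2 scale), with bars for the standard error and filled circles for an adjusted p of at most 0.05. Filled circles mark 8 lower and 2 higher members on the left, and Ube2c (higher) and Ube2v1 (lower) on the right, and the x axes differ in range.

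The genotype comparison asked what loss of Nedd4L changes in freshly isolated MuSCs. The targeted gene, which is still transcribed after deletion of exon 15, was 70.2, 96.4 and 66.7 RPM in WT and 30.2, 36.3 and 22.5 RPM in Nedd4L-cKO libraries (adjusted p = 0.0467). Ube2c was 4.78-fold higher in Nedd4L-cKO MuSCs, and Ube2v1 was 2.70-fold lower. No other member passed the threshold. With 2 of 33 members called, or 6.06%, the share among the E2s stood beside 0.784% of all 15304 genes tested (0.523% higher and 0.261% lower), but it rests on 2 genes. Both also had an absolute fold change past 1 on the log2 scale and a mean of at least 5 RPM, as did 0.653% of all genes. The groups did not overlap for 6 members, or 18.2%, against 19.3% of all genes. At an unadjusted p under 0.05 there were 8 members beside 14.6% of all genes, and 6 of them also did not overlap, beside 11.7% of all genes. The median log2 fold change was 0.06 over the members and 0.00 over all genes. The summed level of the members was 3881 to 4608 RPM in WT and 3675 to 4960 RPM in Nedd4L-cKO libraries and overlapped.

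Ube2c was 14.4, 7.51 and 7.76 RPM in WT replicates 01, 02 and 03 and 50.6, 25.7 and 65.7 RPM in Nedd4L-cKO replicates 01, 02 and 03. Every Nedd4L-cKO library was above every WT library, and the spread was wide among the Nedd4L-cKO libraries. This was a log2 difference of 2.11 ± 0.38 (SE; adjusted p = 0.0325 by limma). The call was lost without WT replicate 02 (adjusted p = 0.0975), without Nedd4L-cKO replicate 01 (0.0940) or without Nedd4L-cKO replicate 03 (0.0761). Scaling each library to its own total (0.0583) and limma without its trend and robust options (0.0684) also ended it, making 5 of 13 alternatives. The summed proliferation list did not overlap either: it was 741, 329 and 386 RPM in WT and 999, 773 and 951 RPM in Nedd4L-cKO libraries. All 18 genes of that list had a positive log2 fold change, beside 7669 of all 15304 genes tested. The median over the list was 1.17. Only Ccnb1 was called, with a log2 fold change of 2.20 ± 0.40 (adjusted p = 0.0325 by limma), or 5.56% of the list. Of all genes, 0.523% were called higher. The 18 genes were measured in the same 6 libraries and are not independent replicates. WT replicate 01 had the highest level of Ube2c and of the list among the WT libraries. Ube2c lies at chr2:164611768-164620742 on GRCm39 and overlaps Tnnc2, a troponin gene of fast muscle: 18.2% of the 31-base words of its transcripts also occur in Tnnc2. Tnnc2 was 38.2, 25.6 and 59.7 RPM in WT and 135, 87.9 and 67.8 RPM in Nedd4L-cKO libraries, without overlap. Within the Nedd4L-cKO libraries Tnnc2 was highest in replicate 01 and Ube2c in replicate 03. In the MuSC and myoblast comparison Tnnc2 was 42.3-fold higher in myoblasts, and Ube2c was 1.90-fold higher by its mean but not called. The part of shared reads in the Ube2c value was not tested.

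The other E2s of proliferating cells did not pass the test. Ube2s was 135, 67.6 and 62.0 RPM in WT and 34.1, 33.6 and 73.1 RPM in Nedd4L-cKO libraries, overlapping and with a negative log2 fold change of -0.90 ± 0.37 (adjusted p = 0.2998). Ube2c and Ube2s, which act in sequence on the same complex, thus had log2 differences of opposite sign. Of the 31-base words of Ube2s, 50.1% also occur in the gene Ube2srt, which the table did not list. Ube2t was 14.7, 8.12 and 9.47 RPM in WT and 24.2, 13.5 and 16.3 RPM in Nedd4L-cKO libraries, with WT replicate 01 inside the range of Nedd4L-cKO (adjusted p = 0.377). None of the 19 APC/C genes and none of the 12 Fanconi genes were called with limma, beside 0.784% of all genes. At an unadjusted p under 0.05 there were 5 APC/C genes and 1 Fanconi gene, beside 14.6% of all genes.

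Ube2v1 pairs with Ube2n to build K63-linked chains. Its level was 315, 252 and 225 RPM in WT and 99.8, 61.5 and 132 RPM in Nedd4L-cKO libraries. The groups did not overlap, and the lowest value was that of Nedd4L-cKO replicate 02. Its log2 fold change was -1.48 ± 0.30 (adjusted p = 0.0488). The call was lost without WT replicate 01 (adjusted p = 0.139), WT replicate 02 (0.136), Nedd4L-cKO replicate 01 (0.0865) or Nedd4L-cKO replicate 02 (0.172). It was also lost with a pseudocount of 0.1 RPM (0.0577), with no filter (0.0571), without the trend and robust options of limma (0.102) and with the replicate number as a block (0.0828), which makes 8 of 13 alternatives. Ube2v1, at chr2:167449555-167474056 on the minus strand of GRCm39, shares 44.4% of its 31-base words with the overlapping gene Gm20431. Gm20431 was 7.80, 0 and 0 RPM in WT and 0, 0.338 and 0 RPM in Nedd4L-cKO libraries, so the sum of both genes was 323, 252 and 225 RPM in WT and 99.8, 61.9 and 132 RPM in Nedd4L-cKO libraries, again without overlap. Ube2n was 353, 276 and 373 RPM in WT and 288, 194 and 232 RPM in Nedd4L-cKO libraries, with 1 overlapping library (adjusted p = 0.392). Ube2v2, the closest relative of Ube2v1, was 192, 219 and 297 RPM in WT and 385, 291 and 222 RPM in Nedd4L-cKO libraries (adjusted p = 0.625). Per kb, Ube2v1 supplied 78.5%, 71.9% and 62.7% of the level of the 2 partners in the WT libraries and 36.5%, 32.0% and 56.9% in the Nedd4L-cKO libraries. Per kb, Ube2v1 was thus the more abundant partner in all 3 WT libraries, and Ube2v2 in 2 of 3 Nedd4L-cKO libraries. This ranking depends on the canonical transcript lengths, 1898 bases for Ube2v1 and 4214 for Ube2v2. In RPM, Ube2v2 exceeded Ube2v1 in WT replicate 03 and in all 3 Nedd4L-cKO libraries. Between MuSCs and myoblasts the share of Ube2v1 overlapped, at 80.0% to 86.5% and 82.6% to 84.6%.

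The Ube2d enzymes and Ube2l3, known partners of HECT ligases, were not called. Ube2d1 was 50.6, 59.5 and 51.1 RPM in WT and 15.9, 13.5 and 38.5 RPM in Nedd4L-cKO libraries, without overlap (log2 fold change -1.36 ± 0.36, adjusted p = 0.115). Nedd4L-cKO replicate 03 stood above the other Nedd4L-cKO libraries, and without it the adjusted p was 0.0195. Ube2d2a was 172, 175 and 122 RPM in WT and 61.8, 94.1 and 105 RPM in Nedd4L-cKO libraries, again without overlap (log2 fold change -0.86 ± 0.28, adjusted p = 0.192). Ube2d3, the most abundant of them, was 1074, 827 and 850 RPM in WT and 1306, 1104 and 831 RPM in Nedd4L-cKO libraries and overlapped (adjusted p = 0.731). Ube2d2b, an intronless copy, stayed at or below 0.540 RPM. Per kb, Ube2d3 supplied 78.2%, 72.2% and 78.0% of the Ube2d level in WT and 92.7%, 88.9% and 80.9% in Nedd4L-cKO libraries, without overlap, whereas the family sum was 401 ± 50.2 RPM per kb in WT and 409 ± 63.8 RPM per kb in Nedd4L-cKO libraries (SD, n = 3). Of the 31-base words of Ube2d2a, 31.7% also occur in a long noncoding RNA gene, Gm66687, of the later annotation. Ube2l3 was 129, 115 and 172 RPM in WT and 275, 203 and 184 RPM in Nedd4L-cKO libraries, without overlap (log2 fold change 0.66 ± 0.26, adjusted p = 0.282). Ube2e3, which is also known to work with Nedd4L, was 81.0, 70.1 and 50.3 RPM in WT and 67.6, 47.5 and 83.1 RPM in Nedd4L-cKO libraries and overlapped.

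**Figure D3:**
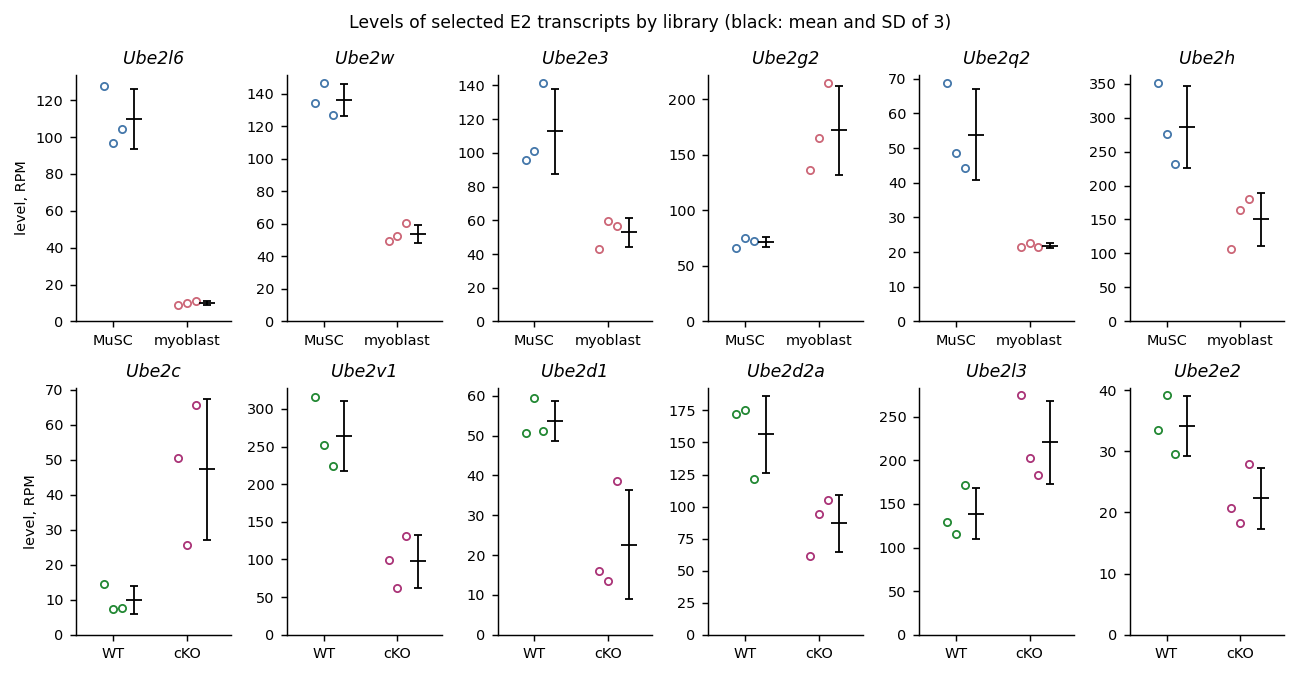
Level in RPM (y axes, from 0) of selected E2 members in each library, with MuSC and myoblast libraries in the upper row and Nedd4L-WT and Nedd4L-cKO libraries in the lower row. Open circles are libraries, black marks are the mean and SD of 3, and the groups of every member shown do not overlap, although Ube2d1, Ube2d2a, Ube2l3 and Ube2e2 in the lower row missed the threshold.

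Among the remaining members in the genotype comparison, Ube2e2 was 33.5, 39.3 and 29.6 RPM in WT and 20.8, 18.3 and 27.9 RPM in Nedd4L-cKO libraries, without overlap (log2 fold change -0.60 ± 0.28, adjusted p = 0.341). Ube2m was 10.7, 6.92 and 4.69 RPM in WT and 1.54, 1.48 and 6.43 RPM in Nedd4L-cKO libraries, with Nedd4L-cKO replicate 03 inside the WT range (log2 fold change -1.16 ± 0.48, adjusted p = 0.298). The Nedd8 conjugation list held no called gene by limma and 1 of 10 at an unadjusted p under 0.05, beside 14.6% of all genes. Ube2a was 75.8, 64.4 and 93.5 RPM in WT and 188, 104 and 92.3 RPM in Nedd4L-cKO libraries, and Ube2b was 212, 212 and 271 RPM in WT and 331, 295 and 263 RPM in Nedd4L-cKO libraries. Both overlapped. Ube2f was 175, 95.9 and 127 RPM in WT and 162, 148 and 107 RPM in Nedd4L-cKO libraries. Of the ERAD enzymes, Ube2j1 was 120, 84.7 and 85.5 RPM in WT and 137, 132 and 80.9 RPM in Nedd4L-cKO libraries. The levels of Ube2j2 were 86.5, 61.0 and 33.3 RPM in WT and 57.7, 47.9 and 52.4 RPM in Nedd4L-cKO libraries, and those of Ube2g2 were 62.5, 46.4 and 31.6 RPM and 45.2, 34.7 and 40.8 RPM. All of them overlapped, with WT replicate 01 the highest WT library in each. Ube2h, at 124 to 308 RPM in WT and 103 to 168 RPM in Nedd4L-cKO libraries, was not called (adjusted p = 0.397). Ube2cbp, Ube2e1, Ube2g1, Ube2k, Ube2o, Ube2q1, Ube2r2 and Ube2z also overlapped, with adjusted p of 0.719 to 0.997.

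Several members called between MuSCs and myoblasts showed no such separation between genotypes. Ube2l6 was 65.2, 87.7 and 92.1 RPM in WT and 97.5, 76.3 and 69.3 RPM in Nedd4L-cKO libraries (adjusted p = 0.992, 95% interval of the log2 difference -0.57 to 0.55). Ube2w was 131, 153 and 190 RPM in WT and 215, 207 and 145 RPM in Nedd4L-cKO libraries, with an interval of -0.32 to 0.82. Ube2q2 was 38.1 to 46.6 RPM in WT and 33.3 to 55.5 RPM in Nedd4L-cKO libraries (interval -0.53 to 0.64). Differences between the 2 comparisons were not tested, because each table was normalized on its own. In the Isg15 list, 9 of 10 genes had a positive log2 difference, beside 7669 of all 15304 genes tested. Only Ifit1 was called, and it was higher (log2 fold change 2.25 ± 0.46, adjusted p = 0.0490 by limma). Of all genes, 0.523% were called higher. The Ifit1 call was lost with the replicate block (adjusted p = 0.0504). Across the lists of E1s, E2s without a Ube2 symbol, modifiers, Sumo ligases and proteases, ERAD genes and Rad6 partners, limma called no gene. These lists held 9, 8, 13, 12, 14 and 12 tested genes, in that order. Between genotypes, 4 of their genes had an unadjusted p under 0.05 (3 ERAD genes and 1 modifier), beside 14.6% of all genes.

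**Figure D4:**
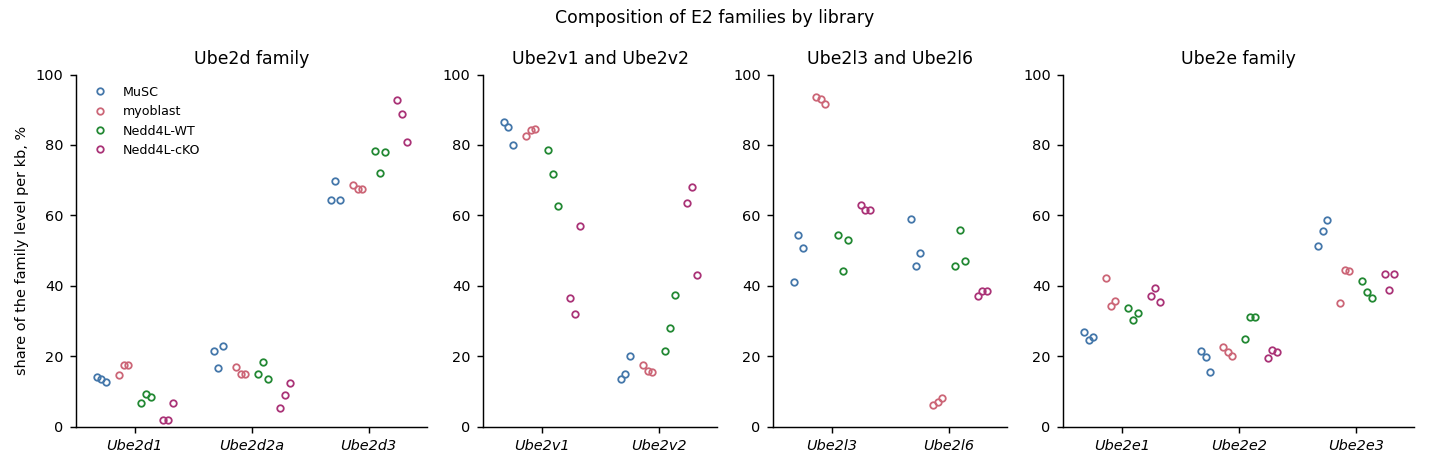
Share of each gene in its family's summed level per kb of canonical transcript (y axis, percent) in each of the 12 libraries, 3 circles per group, to be compared within MuSC and myoblast or within Nedd4L-WT and Nedd4L-cKO. Ube2d3 took 80.9% to 92.7% of the Ube2d level in Nedd4L-cKO libraries and 72.2% to 78.2% in WT, and Ube2l6 took 6.27% to 8.24% in myoblasts and 45.6% to 58.9% in MuSCs.

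Sequence properties of the transcripts varied among the members and were only loosely related to the differences. GC content of the canonical transcript ran from 35.1% (Ube2v2) to 62.7% (Ube2m), and the shortest transcript was that of Ube2c, at 967 bases. Across the 32 members tested between MuSCs and myoblasts, GC content and log2 fold change had a Pearson r of 0.07 and a Spearman rho of 0.02. Across the 33 members tested between genotypes, r was -0.32 and rho was -0.31. These are correlations across genes measured in the same 6 libraries, and genes are not independent replicates. The share of 31-base words found in other genes exceeded 25% in 6 members and was under 10% in 20, and it was highest for Ube2s (64.8%) and Ube2v1 (58.3%). For members with a large shared portion, the assignment of reads to the gene rests on the estimates of the quantification.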

How the data were processed

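SMART-Seq HT libraries of 12 samples were compared in 2 tables. According to the deposited notes and methods, the authors quantified 75-base single-end reads with kallisto 0.46.1 on the GENCODE M28 basic annotation, summed to genes with tximport and normalized with DESeq2. The deposited values used here are a signal, namely estimated counts that the authors divided by DESeq2 normalization factors, per table. At most 62.6% of values under 15 were whole multiples of a common step (within 0.02 steps), so reads were not recovered and read depth is unknown. Normalized counts summed to 33189800 to 37595700 and 40323500 to 50687100 per library. A further 18 per-sample columns (6 duplicates and 12 RPM) and the authors' fold changes, p-values and adjusted p-values were not used.

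RPM were obtained by dividing each normalized count by the mean of its table's 6 library totals. limma 3.58.1 in R 4.3.3 (trend and robust options) was run on log2(RPM + 1), which understates changes of low genes, for genes reaching 10 normalized counts in 3 or more libraries, with Benjamini-Hochberg adjustment over all tested genes. Exact permutation tests of 3 against 3 cannot go below p = 0.1. The limma step was tested on simulated data. Replicates are different mice in each group. MuSC and myoblast libraries were paired by mouse in the labels (correlation of deviations -0.03, -0.01 and 0.02). No batch or date was given in the labels. Positions, transcript lengths and 31-base words came from GENCODE M39 on GRCm39, promoters from RefSeq on GRCm38.p6. Values in every library were given for members called whose log2 change was 1 or more in size, for members with unadjusted p under 0.05 and non-overlapping groups between genotypes, and for fixed role groups. Pathway lists name at most 3 called genes each. Some other called members and list genes were named after their values were seen. The members and lists were chosen with earlier results of these data known. A member and some list genes are counted but not reported here by name.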

Additional observations from a re-analysis of the deposited data

How the results depend on the processing

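Alternatives were a pseudocount of 0.1 RPM, no filter or a filter in every library, each library scaled to its own total, median-ratio factors, limma without its trend and robust options, the replicate block and each library left out. Between MuSCs and myoblasts the number of E2 members called was 8 to 11 outside the left-out libraries and 6 to 11 with them, lowest without MuSC replicate 04, and 5 members also changed by 1 or more on the log2 scale. Ube2l6, Ube2w, Ube2q2, Ube2e3 and Ube2g2 kept their calls in all 13 alternatives. With the replicate block, paired by mouse, 8 members were called, losing Ube2m and Ube2q1. Between genotypes the number of members called fell from 2 to 1 with a pseudocount of 0.1 RPM, with no filter, with each library scaled to its own total, and with the replicate block (same-numbered WT and Nedd4L-cKO mice share only a number, with correlations of deviations of 0.02, -0.02 and -0.18). It fell to 0 without the trend and robust options, and ranged from 0 to 2 with a library left out. Over all genes the 120 genotype calls became 213 with the filter in every library, 50 without the trend and robust options, 76 with the replicate block and 21 to 176 with a library left out. The cause of these changes was not tested. Among the member results recomputed under the alternatives, none reversed direction. Scaling each library to its own total shifted the median of all genes by 0.13 between MuSCs and myoblasts and by -0.12 between genotypes, where the share of higher genes among all calls was 56.0% instead of 66.7%. With 3 libraries per group and unknown read depth, small differences and levels of a few RPM were measured with little precision.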
